A study of Mus musculus with 6 samples.

Results

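The genes that copy the genome and carry a cell from G1 into S phase were followed in mGLUTag cells, an immortalized line of murine intestinal L-cells that secretes glucagon-like peptide-1. The list held 43 genes, chosen by symbol for their known roles in replication and G1/S entry, and every probe carrying 1 of these symbols was used, which gave 86 of 45281 probes and 43 of 30854 gene symbols on the array. RNA from synchronized cells was hybridized to Illumina mouse bead arrays at 2 time points, with 3 arrays at 4 h and 3 at 16 h after the synchronizing step. All 6 arrays shared the same unmodified line and the same handling before collection: growth, low-serum starvation to bring the cells to rest, forskolin, which raises cAMP, and return to growth medium. The study took 4 h as the peak and 16 h as the trough of the clock gene Arntl (Bmal1). The cells therefore differed between the groups in time since release as well as in clock phase, and these 2 cannot be told apart. No array of starved cells or of cells before the synchronizing step was analysed here, and 1 cell line stood for the L-cell.

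Before S phase, the origin recognition complex (ORC) marks the places where copying will start, and Cdc6 and Cdt1 load the MCM helicase there. At the start of S phase Cdc45 and the GINS complex turn the loaded helicase into the moving form. The clamp loader (RFC) places the sliding clamp (PCNA) on DNA, and the polymerases copy the strands while replication protein A (RPA) coats the exposed single strands. Resting cells that return to the cycle raise many of these transcripts together under E2F transcription factors, after cyclin D and cyclin E have relieved the block on E2F. In the intact gut, mature L-cells are non-dividing, whereas mGLUTag cells divide in culture.

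Some promoters of these genes hold the letters that E2F proteins are known to bind, and the promoters of 4 MCM helicase subunits are shown because each had a window with more than 1 such match and they form 1 complex. Rfc3 also had a window with 2 matches, while the window of Mcm2 and another window of Mcm7 had 0. The letters searched were TTTCCCGC, TTTGGCGC, TTTCGCGC and TTTGCCGC on both strands, where matches could overlap. They are marked by capitals in the RefSeq windows (GRCm38.p6), each written 5′ to 3′ along the gene from 250 bases before to 50 bases after the start.
Mcm6, chr1:128359656-128359955, minus strand: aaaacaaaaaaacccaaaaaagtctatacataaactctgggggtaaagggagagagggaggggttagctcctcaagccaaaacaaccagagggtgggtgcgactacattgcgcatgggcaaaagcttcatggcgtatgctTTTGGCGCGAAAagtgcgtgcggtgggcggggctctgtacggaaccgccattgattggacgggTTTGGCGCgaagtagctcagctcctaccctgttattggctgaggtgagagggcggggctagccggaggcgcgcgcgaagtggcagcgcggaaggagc
Mcm3, chr1:20820263-20820562, minus strand: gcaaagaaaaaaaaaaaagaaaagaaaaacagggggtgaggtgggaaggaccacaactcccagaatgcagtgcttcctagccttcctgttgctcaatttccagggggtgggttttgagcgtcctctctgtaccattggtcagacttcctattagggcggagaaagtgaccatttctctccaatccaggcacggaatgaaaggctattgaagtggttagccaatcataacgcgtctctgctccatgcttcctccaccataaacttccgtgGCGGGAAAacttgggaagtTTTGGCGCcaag
Mcm5, chr8:75109259-75109558, plus strand: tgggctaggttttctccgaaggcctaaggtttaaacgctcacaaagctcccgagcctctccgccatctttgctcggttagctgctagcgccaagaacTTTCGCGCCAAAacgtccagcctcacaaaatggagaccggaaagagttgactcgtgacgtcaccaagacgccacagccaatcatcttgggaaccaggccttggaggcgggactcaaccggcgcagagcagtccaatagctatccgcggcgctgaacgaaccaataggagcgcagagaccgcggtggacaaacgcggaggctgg
Mcm7, chr5:138171834-138172133, minus strand: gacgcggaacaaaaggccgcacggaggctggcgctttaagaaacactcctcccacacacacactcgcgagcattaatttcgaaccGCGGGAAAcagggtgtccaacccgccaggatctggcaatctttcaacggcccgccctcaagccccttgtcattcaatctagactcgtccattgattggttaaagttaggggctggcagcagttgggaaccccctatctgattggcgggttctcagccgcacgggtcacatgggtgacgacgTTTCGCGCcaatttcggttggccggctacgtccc
The windows of Mcm6 and Mcm5 each held a pair of overlapping matches on opposite strands, read as 1 run of capitals. A window was in the RefSeq table for 35 of the 43 genes, 5 of them MCM subunits. E2F letters stood in 14 of the 42 windows of these genes (33.3%), against 403 of 10017 windows of all genes detected on the arrays (4.02%) and 744 of all 32851 windows (2.26%). The E-box CACGTG, the letters bound by the Arntl/Clock dimer among other factors, stood in 5 of the 42 windows (11.9%), against 9.92% of the windows of all detected genes. A match describes letters in a window of 300 bases and not a site in use.

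Transcripts of 39 of the 43 genes were detected, which means a mean deposited intensity above the noise limit of the arrays. The limit of an array was set from its values below 0 and lay between 9.2 and 14 intensity units. Of the 39 genes, 38 were above it on all 6 arrays and Orc2 on 5. The 4 remaining genes were Ccnd1, which encodes cyclin D1, Pola1, the catalytic subunit of polymerase alpha, Pole2, a subunit of polymerase epsilon, and Slbp, which binds the stem-loop of histone mRNA. Each was above the limit on none of the 6 arrays. At 4 h the brightest Ccnd1 probe gave 2.8, 0.8 and 5.8 intensity units, and at 16 h it gave -0.5, 9.2 and -1.2. Probes at this level are not above background, so no fold was taken from them. A low transcript and a probe that fails to capture it cannot be told apart, and Pola1 and Slbp each rested on a single probe. Ccnd3, which encodes cyclin D3 and was not among the 43 genes, was above the limit on all 6 arrays. Its deposited intensity averaged 680 at 4 h and 471 at 16 h.

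Among the marker genes of the line, 14 of 16 L-cell genes were detected, with Gcg, which encodes proglucagon, at a mean deposited intensity of 19565 at 4 h and 11924 at 16 h. Pyy and Pcsk1 were not detected. Of markers of other cells, 0 of 5 leukocyte genes, 1 of 6 fibroblast genes (Col1a1) and 1 of 4 genes of other gut epithelium (Tff3) were detected. The mean deposited intensity of an array was 354, 291 and 322 at 4 h and 246, 245 and 216 at 16 h, so the dimmest 4 h array exceeded the brightest 16 h array. The mean of the 18S ribosomal RNA probes separated the arrays in another way, with normalized log2 means at 4 h of 8.50, 6.91 and 10.57, and at 16 h of 9.24, 7.71 and 7.02, and its part in the results was not tested beyond the fits that carry it as a block.

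None of the 39 detected replication and G1/S genes differed between 4 h and 16 h past the threshold. In the limma fit over all probes, 0 of the 86 member probes had an adjusted p under 0.05, against 4 of all 45281 probes (0.00883%), and the smallest adjusted p of a member probe was 0.583 in limma. At an unadjusted p under 0.05 stood 1 member probe higher and 4 lower at 4 h, against 2.82% and 2.60% of all probes. All of these member probes were detected. Of the member probes 69 of 86 were detected, against 17119 of 45281 of all probes, so these shares are not like for like. The log2 change of a gene, 4 h minus 16 h after quantile normalization, ran from -0.36 for Gins1 to 0.21 for Rrm1, with SE between 0.064 and 0.29. It was below 0 for 24 of the 39 genes (61.5%), against 6043 of 12191 detected genes (49.6%). The median was -0.014 over the 39 genes and 0.0016 over all detected genes. When 1 array was left out, the share of the 39 genes below 0 ran from 46.2% to 64.1% and their median from -0.084 to 0.015. At an unadjusted p under 0.05 stood 2 of the 39 genes, Gins1 lower and Orc2 higher at 4 h, where 11.0% of all detected genes stood (5.82% higher and 5.19% lower). The 3 arrays of a time point lay wholly to one side of the other 3 for Gins1 and Rfc5 (2 of 39, 5.13%), against 12.2% of all detected genes (6.57% higher and 5.67% lower). In a bulk culture a smaller share of cycling cells and less transcript per cell cannot be told apart.

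The precision was enough to bound most of these changes. The 95% interval of the change lay within 1.5-fold in either direction for 35 of the 39 genes (89.7%), against 93.3% of all detected genes, and within 2-fold for 39 of 39, against 99.7%. The 4 genes with wider intervals were Mcm2, Gins1, Gins2 and Ccne2. These bounds hold on the log2 scale with an offset of 50 intensity units, which shrinks the change of dim genes, and with quantile normalization, which takes out any change shared by most transcripts. With no background correction, 29 of the 39 intervals lay within 1.5-fold and 36 within 2-fold, against 41.2% and 72.4% of all detected genes. With median scaling 14 lay within 1.5-fold and 38 within 2-fold, against 52.5% and 96.0% of all detected genes. With no normalization between arrays 4 and 37 did, against 34.9% and 90.0%.

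**Figure D1:**
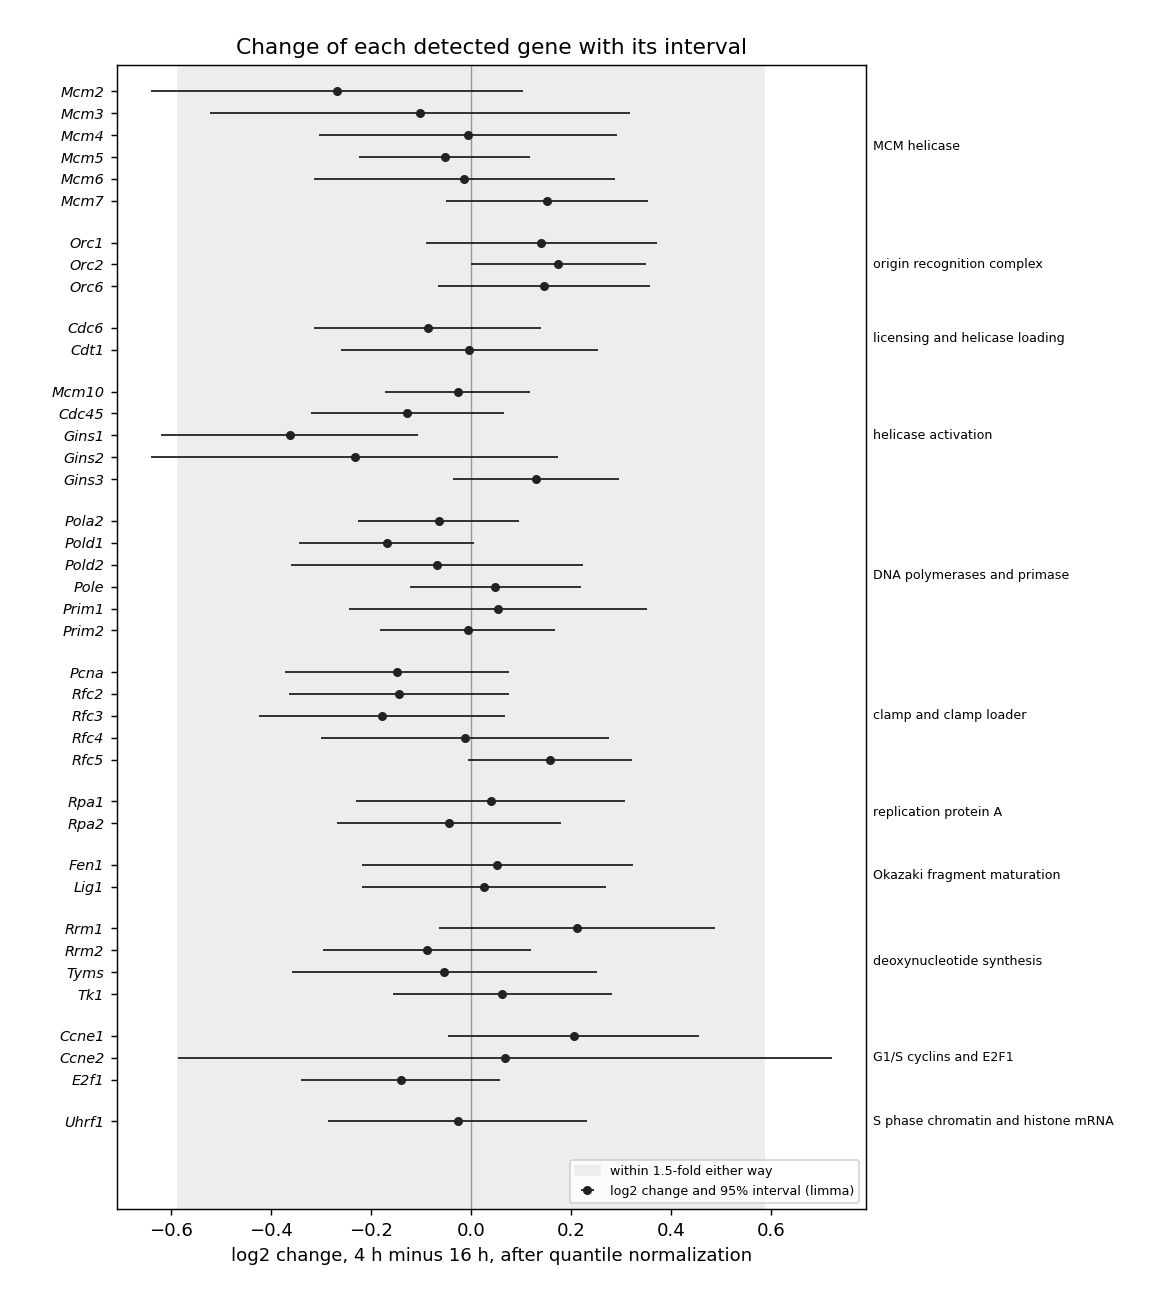
Log2 change of each of the 39 detected genes, 4 h minus 16 h after quantile normalization, with its 95% limma interval (n = 3 arrays per time point), grouped by role, and the grey band marks 1.5-fold in either direction. The intervals of 35 genes stay inside the band, and those of Mcm2, Gins1, Gins2 and Ccne2 leave it.

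The 3 listed subunits of the origin recognition complex, Orc1, Orc2 and Orc6, had changes above 0, with a median of 0.15. Among its subunits outside the 43 genes, the array's ORC3L, ORC4 and ORC5L had changes of 0.04, 0.11 and 0.12, and ORC4L, an older symbol of Orc4 with a probe of its own, had -0.12. Orc2, a core subunit that the array lists as ORC2L, read 6.47, 6.36 and 6.51 at 4 h and 6.38, 6.24 and 6.20 at 16 h on the normalized log2 scale. Ranges of Orc2 overlapped through 16 h replicate 1 alone, and its change was 0.17 (SE 0.0771, adjusted p = 0.919 in limma). The probe was dim, and its deposited intensity averaged 30.7 ± 10.5 at 4 h and 12.8 ± 5.11 at 16 h (SD, n = 3). Orc1 (ORC1L on the array), an ATPase subunit, was at 6.57, 6.68 and 6.63 at 4 h and 6.29, 6.47 and 6.69 at 16 h, a change of 0.14 (SE 0.10, adjusted p = 0.953 in limma), and 16 h replicate 3 was the highest array. Orc6 (ORC6L on the array), the smallest subunit, was at 11.88, 11.76 and 11.54 at 4 h and 11.62, 11.51 and 11.60 at 16 h, and its change was 0.15 (SE 0.0933, adjusted p = 0.946 in limma). The ORC median was 0.23 with an offset of 16 and 0.50 with no background correction, where Orc2 reached 0.76 and Orc1 0.50 (adjusted p = 0.844 for each in limma). With no normalization between arrays it was 0.38, against 0.37 for all detected genes.

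The licensing factors that load the helicase were close to 0. Cdc6, the ATPase that joins ORC, was at 9.70, 9.48 and 9.86 at 4 h and 9.72, 9.85 and 9.74 at 16 h, with 4 h arrays at both ends of the range. Its change was -0.09 (SE 0.10, 95% interval -0.31 to 0.14, adjusted p = 0.966 in limma). Cdt1, the partner that brings MCM to the origin, was at 9.71, 9.70 and 10.04 at 4 h and 9.67, 9.99 and 9.80 at 16 h, a change of -0.0036 (SE 0.11).

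All 6 subunits of the MCM helicase were detected, 5 with a change below 0, and their median was -0.033. The MCM median was 0.34 with median scaling and 0.43 with no normalization between arrays. All detected genes had 0.29 and 0.37 there, so the MCM median lay above theirs on those scales. Mcm2 was the subunit with the lowest change and read 10.50, 10.88 and 11.10 at 4 h and 10.81, 11.28 and 11.20 at 16 h. Arrays of Mcm2 overlapped, since 4 h replicates 2 and 3 were above 16 h replicate 1, and its change was -0.27 (SE 0.16, adjusted p = 0.942 in limma). Leaving out 4 h replicate 1 gave -0.10 for Mcm2, leaving out 16 h replicate 2 gave -0.18, and leaving out 4 h replicate 3 or 16 h replicate 1 gave -0.41. Mcm7 was the 1 subunit above 0, at 10.47, 10.77 and 10.76 at 4 h and 10.51, 10.53 and 10.50 at 16 h. For Mcm7 the 16 h arrays lay close together while 4 h replicate 1 was below all of them, and its change was 0.15 (SE 0.089, adjusted p = 0.936 in limma). Mcm3 was at 8.67, 8.60 and 9.20 at 4 h and 9.27, 8.81 and 8.68 at 16 h, with 1 high array at each time point, and its change was -0.10 (SE 0.19). Mcm4 was at 11.68, 11.61 and 12.13 at 4 h and 11.78, 11.92 and 11.73 at 16 h, a change of -0.0062 (SE 0.13). Mcm6 was at 11.33, 11.32 and 11.72 at 4 h and 11.45, 11.68 and 11.27 at 16 h, a change of -0.01 (SE 0.13). For Mcm4 and Mcm6 alike, 4 h replicate 3 was the highest array while the other 4 h arrays lay at or below the middle of the range. Mcm5 was at 11.40, 11.54 and 11.62 at 4 h and 11.60, 11.54 and 11.58 at 16 h, a change of -0.05 (SE 0.0756).

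The MCM subunits also differed between arrays of 1 time point. The median deviation of the 6 subunits from their own means was -0.14, -0.11 and 0.21 on 4 h replicates 1, 2 and 3, and -0.02, 0.05 and -0.09 on 16 h replicates 1, 2 and 3. The spread within the 4 h group was thus wider than the difference between the time points. Leaving out 4 h replicate 3, the array with the highest 18S level, took the MCM median to -0.16, and leaving out any other array gave -0.08 to 0.03. The same array held the highest value for 15 of the 39 genes (38.5%), against 20.6% of all detected genes. How far the 18S level of that array goes with this was not tested.

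**Figure D2:**
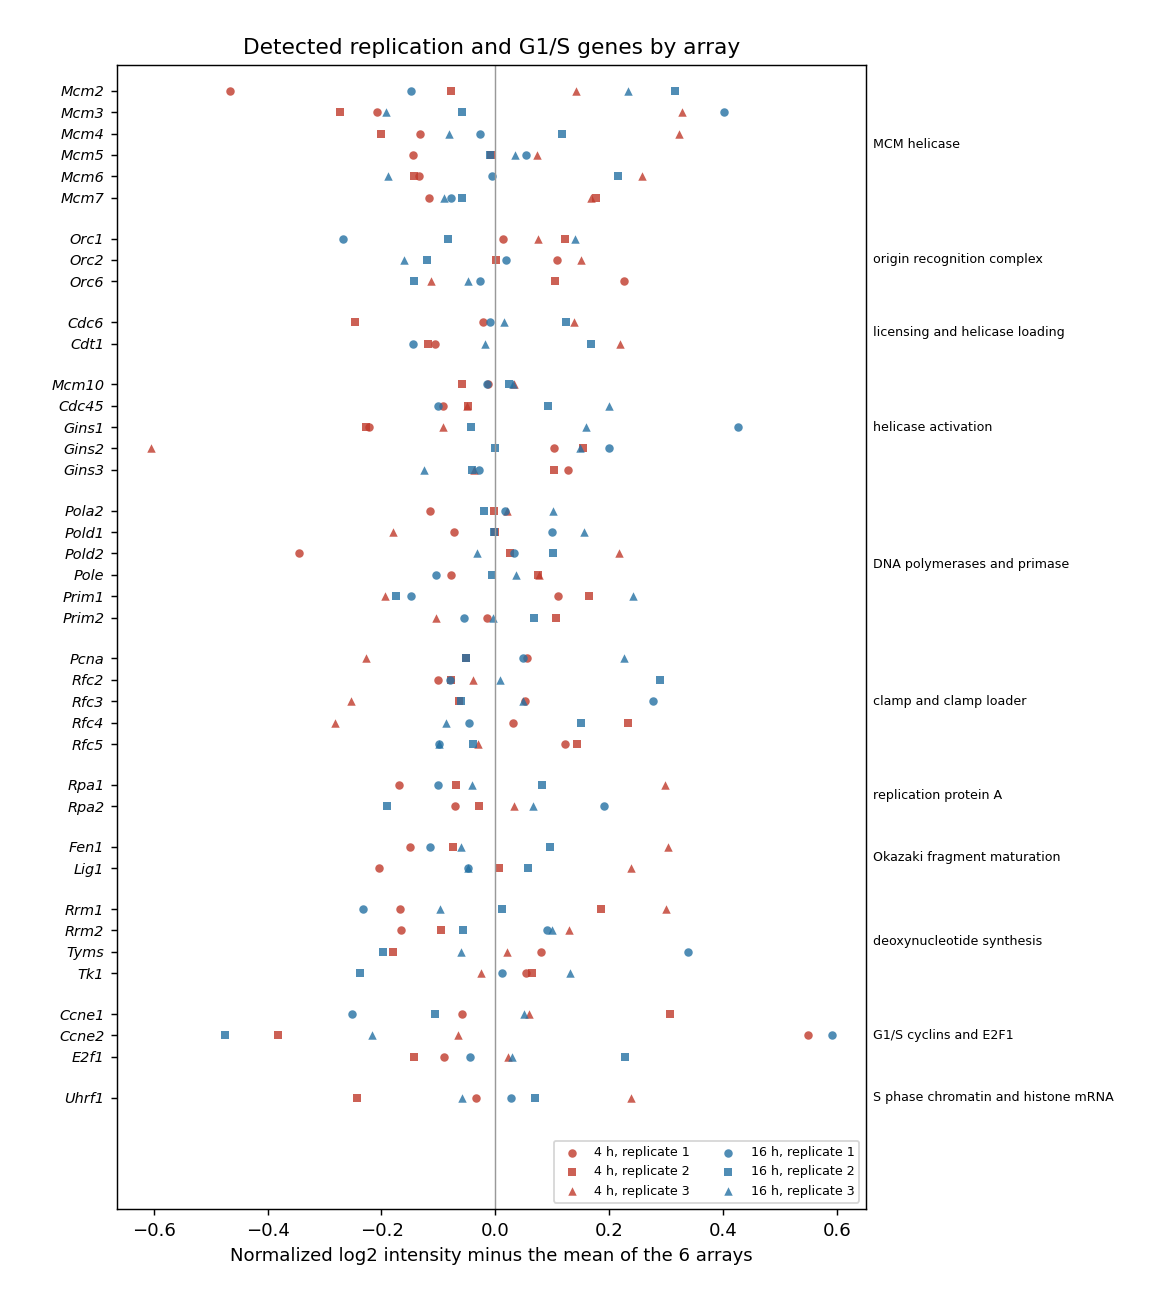
Normalized log2 intensity of each detected gene on each array, minus the gene's mean over the 6 arrays, with 4 h in red, 16 h in blue and the replicates by symbol. Red and blue symbols are mixed for most genes. The array farthest to the right is 4 h replicate 3 for Mcm4, Mcm6, Fen1 and Rpa1. For Ccne2 replicate 1 of both time points lies on the right.

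Of the 5 listed factors that activate the helicase, 4 had a change below 0, with a median of -0.13, which was -0.052 without 4 h replicate 3, -0.059 without 16 h replicate 3 and -0.19 without 16 h replicate 1. With median scaling this median was 0.28 and with no normalization between arrays 0.36, close to the 0.29 and 0.37 of all detected genes. Gins1, a GINS subunit, was at 7.54, 7.54 and 7.67 at 4 h and 8.19, 7.73 and 7.93 at 16 h. Every 4 h array of Gins1 was below every 16 h array, and the means were 7.59 ± 0.077 at 4 h and 7.95 ± 0.23 at 16 h (SD, n = 3). The change of -0.36 (SE 0.11, 95% interval -0.62 to -0.11) had an unadjusted p of 0.011 and an adjusted p of 0.721 in limma. In the deposited intensities the same probe averaged 156 ± 31.4 at 4 h and 150 ± 40.5 at 16 h (SD, n = 3), so the lower level at 4 h was relative to the brighter 4 h arrays. Gins2, its partner, was at 9.72, 9.77 and 9.02 at 4 h and 9.82, 9.62 and 9.77 at 16 h, where 4 h replicate 3 alone was low, and its change was -0.23 (SE 0.18). Gins3 had the opposite sign, at 7.49, 7.46 and 7.32 at 4 h and 7.33, 7.32 and 7.24 at 16 h, a change of 0.13 (SE 0.073, adjusted p = 0.925 in limma). The GINS subunits thus did not share a sign, and Gins4, outside the 43 genes, had a change of 0.02. Cdc45 (CDC45L on the array), which completes the active helicase, had a change of -0.13 (SE 0.0853) and Mcm10, which helps to fire origins, one of -0.03 (SE 0.0643), and neither passed the test.

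Of the listed polymerase and primase genes, 6 of 8 were detected, and 4 of these had a change below 0, with a median of -0.036, which was 0.0055 without 4 h replicate 1 and between -0.071 and -0.020 without another array. With the offset kept, it was 0.35 with median scaling and 0.44 with no normalization between arrays, above the 0.29 and 0.37 of all detected genes. Pold1, the catalytic subunit of polymerase delta, was at 10.44, 10.51 and 10.33 at 4 h and 10.61, 10.51 and 10.67 at 16 h. For Pold1 the highest 4 h array met the lowest 16 h array, and its change was -0.17 (SE 0.077, adjusted p = 0.919 in limma). Its partner Pold2 had a change of -0.07 (SE 0.13). Pole, the catalytic subunit of the leading-strand polymerase epsilon, had a change of 0.05 (SE 0.0754). Pola2, a subunit of polymerase alpha, had a change of -0.06 (SE 0.0713), and the primase subunits Prim1 and Prim2, which make the RNA primers, changes of 0.05 (SE 0.13) and -0.0067 (SE 0.0773). None of the 6 passed the test.

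Pcna and the 4 listed subunits of its loader, Rfc2 to Rfc5, had 4 of 5 changes below 0 and a median of -0.14, which was -0.035 without 16 h replicate 2, -0.072 without 4 h replicate 3 or 16 h replicate 3 and -0.082 without 16 h replicate 1. This median was 0.24 with median scaling and 0.33 with no normalization between arrays, against 0.29 and 0.37 for all detected genes. Pcna, the sliding clamp, was at 8.61, 8.50 and 8.33 at 4 h and 8.60, 8.50 and 8.78 at 16 h, a change of -0.15 (SE 0.0988, adjusted p = 0.948 in limma), and 16 h replicate 3 was above every 4 h array. Rfc3, a loader subunit, was at 9.34, 9.22 and 9.03 at 4 h and 9.57, 9.23 and 9.34 at 16 h, with overlapping arrays and a change of -0.18 (SE 0.11, adjusted p = 0.942 in limma). Rfc2 had a change of -0.14 (SE 0.0971) and Rfc4 one of -0.01 (SE 0.13). Rfc1, the large subunit, which was not among the 43 genes, had 0.12 (SE 0.11). Rfc5 was the 1 listed subunit above 0, at 10.25, 10.27 and 10.10 at 4 h and 10.03, 10.09 and 10.03 at 16 h. Every 4 h array of this Rfc5 probe was above every 16 h array, by a narrow margin, and the change was 0.16 (SE 0.0725, adjusted p = 0.919 in limma).

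Rfc5 was also the gene whose probes differed most. Its brightest probe, ILMN_2637203, gave the 0.16 above. The dimmer probe ILMN_2550370 gave 6.58, 6.62 and 6.54 at 4 h and 6.94, 6.83 and 6.76 at 16 h. Every 4 h array of that probe was below every 16 h array, with a change of -0.27 (SE 0.072, adjusted p = 0.583 in limma), the smallest p among the 86 probes. The remaining probe, ILMN_2662657, gave 0.048. The direction for Rfc5 therefore depended on the probe, and the mean of its detected probes was -0.02. Among the 17 genes with more than 1 detected probe, 8 had probes of opposite sign (Cdc6, Lig1, Mcm4, Mcm6, Mcm7, Rfc5, Rrm2 and Tyms). Rfc2 had 4 detected probes, all below 0, from -0.22 to -0.06, and Gins2 had 2, at -0.23 and -0.25. Both Rrm1 probes were above 0, at 0.21 and 0.18.

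**Figure D3:**
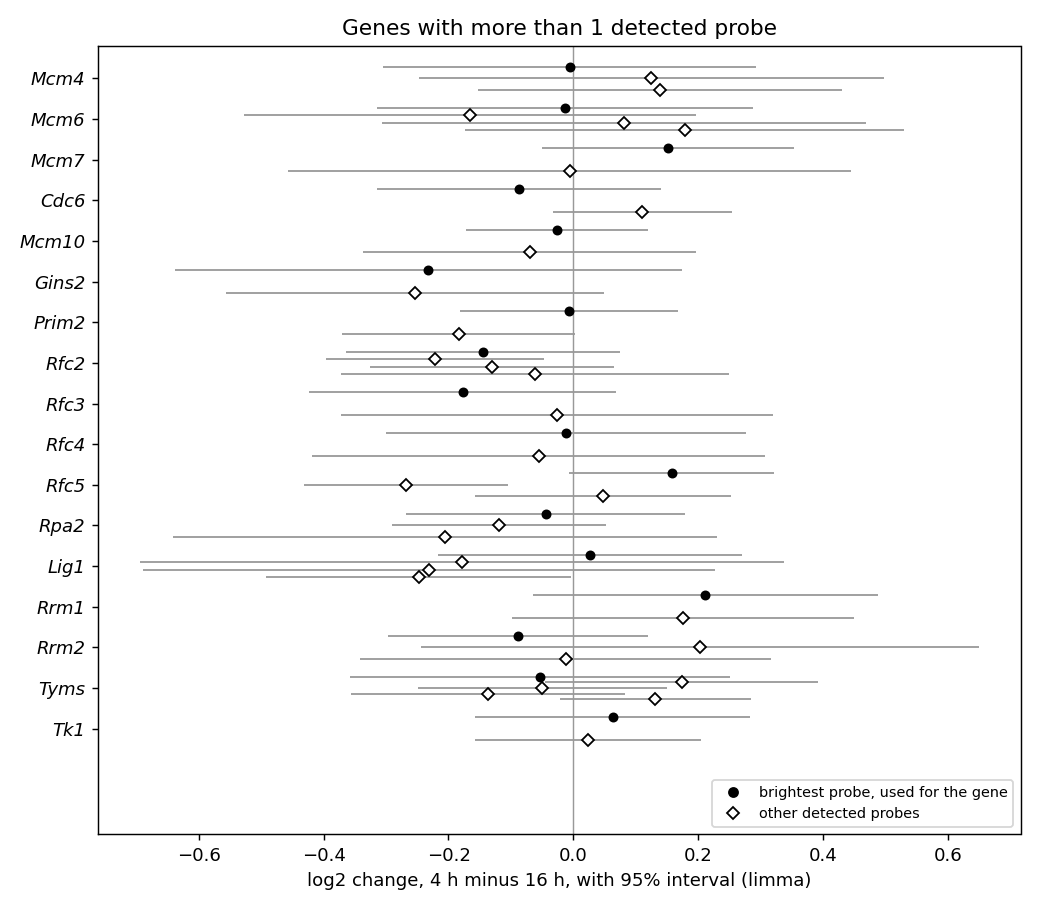
Log2 change, 4 h minus 16 h, of every detected probe of the 17 genes with more than 1, with 95% limma intervals, where filled circles mark the brightest probe, which stands for the gene, and open diamonds the others. The Rfc5 probes lie on both sides of 0, from -0.27 to 0.16, while the 4 Rfc2 probes lie below 0.

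Replication protein A and the enzymes that finish Okazaki fragments showed small changes with the spread of single arrays. Rpa1, the large RPA subunit, was at 11.97, 12.07 and 12.44 at 4 h and 12.04, 12.23 and 12.10 at 16 h, a change of 0.04 (SE 0.12). Rpa2, the middle subunit, was at 9.50, 9.54 and 9.60 at 4 h and 9.76, 9.38 and 9.64 at 16 h, a change of -0.04 (SE 0.0989, adjusted p = 0.983 in limma). For Rpa2 the highest and the lowest array both belonged to 16 h. Fen1, the flap nuclease, was at 11.92, 11.99 and 12.37 at 4 h and 11.95, 12.16 and 12.00 at 16 h, where 4 h replicate 3 stood above the other arrays, and its change was 0.05 (SE 0.12, 95% interval -0.22 to 0.32, adjusted p = 0.983 in limma). Lig1, which seals the nicks, had a change of 0.03 (SE 0.11).

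The listed enzymes of deoxynucleotide supply had 2 of 4 changes below 0 and a median of 0.0045, which was 0.092 without 16 h replicate 1 and -0.089 without 16 h replicate 2. Rrm1, the large subunit of ribonucleotide reductase, was at 10.55, 10.91 and 11.02 at 4 h and 10.49, 10.73 and 10.62 at 16 h. Its 4 h values enclosed those of 16 h replicates 2 and 3, and its change of 0.21 (SE 0.12, 95% interval -0.06 to 0.49) had an adjusted p of 0.930 in limma. Rrm2, the small subunit, had a change of -0.09 (SE 0.0919). Tyms, thymidylate synthase, had a change of -0.05 (SE 0.13), and Tk1, thymidine kinase, one of 0.06 (SE 0.097).

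Among the G1/S regulators, Ccne1, which encodes cyclin E1, was at 7.39, 7.76 and 7.51 at 4 h and 7.20, 7.34 and 7.50 at 16 h. Ranges of Ccne1 overlapped through 4 h replicate 1 and 16 h replicate 3, and its change was 0.20 (SE 0.11, adjusted p = 0.924 in limma). In the deposited intensities, where 96.9% of all detected genes were higher at 4 h, its arrays did not overlap, with 148 ± 4.79 at 4 h and 79.6 ± 5.94 at 16 h (SD, n = 3). Ccne2, which encodes cyclin E2, was at 10.13, 9.20 and 9.51 at 4 h and 10.17, 9.10 and 9.36 at 16 h. Replicate 1 was the highest array of Ccne2 at both time points, and with a change of 0.07 (SE 0.29, 95% interval -0.59 to 0.72) it was the least precisely measured of the 39 genes. E2f1, the transcription factor that drives much of this group, was at 10.98, 10.93 and 11.10 at 4 h and 11.03, 11.30 and 11.10 at 16 h, a change of -0.14 (SE 0.0879, adjusted p = 0.945 in limma). Uhrf1, which carries DNA methylation through replication, was at 10.99, 10.78 and 11.27 at 4 h and 11.06, 11.10 and 10.97 at 16 h, a change of -0.03 (SE 0.11, adjusted p = 0.994 in limma). Its highest and lowest arrays both belonged to 4 h.

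The sign of the changes depended on how the arrays were scaled to each other, for these genes and for all detected genes alike. In the deposited intensities, 39 of the 39 genes were higher at 4 h, by log2 ratios of 0.057 to 1.26 (median 0.48), where 96.9% of all detected genes were higher and their median was 0.54. With background correction and no normalization between arrays, the median change was 0.45 for the 39 genes and 0.37 for all detected genes. While deposited medians ran the other way, 28 of the 39 lay above the median of all detected genes on this scale with the offset. There 11 of the 39 genes (Ccne1, Rfc5, Tk1, Mcm7, Rrm1, Pole, Orc6, Mcm5, Prim2, Pola2 and Orc1) passed an adjusted p of 0.05 in limma, all higher at 4 h, against 15.1% of all detected genes. With median scaling, where the median change of all detected genes was 0.29, Ccne1, Rfc5, Tk1 and Mcm7 passed, against 5.65% of all detected genes. After quantile normalization the share of the 39 genes below 0 was thus 61.5%, against 49.6% of all detected genes. It was 2.56% with median scaling and 0% without normalization, against 5.87% and 1.54%. With cyclic loess it was 61.5% and with linear scaling on detected probes 69.2%, against 51.8% and 53.6%. Median scaling set the arrays level at the median of all probes. In the deposited intensities that median was 3.7 to 5.5 units, below the noise limits of 9.2 to 14. Median scaling thus aligned the arrays at background level and not at the level of detected genes. Whether the shared brightness of the 4 h arrays came from the RNA or from the hybridization cannot be told apart in these files.

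**Figure D4:**
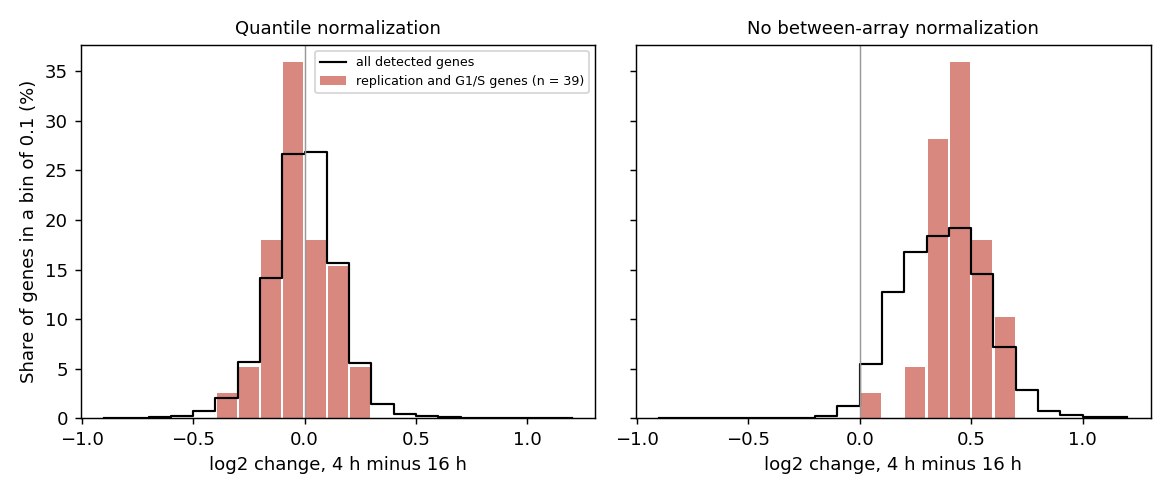
Share of genes in bins of 0.1 of the log2 change, 4 h minus 16 h, for the 39 detected replication and G1/S genes (filled) and all 12191 detected genes (line), after quantile normalization on the left and with no normalization between arrays on the right. Bars and line both centre near 0 on the left (medians -0.014 and 0.0016), and both shift to the right of 0 without normalization (medians 0.45 and 0.37).

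The changes were also set beside the E2F letters of the promoter windows. Of the detected genes with a window, the 12 with a match had a median log2 change of -0.02, with 8 below 0, and the 20 without a match had a median of -0.02, with 11 below 0. The MCM promoters printed above belong to Mcm6, Mcm3, Mcm5 and Mcm7, whose changes ran from -0.10 to 0.15.

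Other replication and G1/S genes were read in the same way. Of 54 further gene symbols on the array, 46 were detected, 29 of them below 0 (63.0%, against 49.6% of all detected genes), with a median of -0.04 (-0.047 to -0.021 when 1 array was left out) and 0 past an adjusted p of 0.05 in limma. That median was 0.33 with median scaling and 0.42 with no normalization between arrays, against 0.29 and 0.37 for all detected genes. It thus lay above theirs on those scales, which keep the offset that shrinks the change of dim genes. At an unadjusted p under 0.05 stood 3 higher and 4 lower of the 46, against 5.82% and 5.19% of all detected genes. Dut, which clears dUTP, was at 9.58, 9.76 and 9.77 at 4 h and 9.41, 9.38 and 9.37 at 16 h, with every 4 h array above every 16 h array and a change of 0.31 (SE 0.0744, adjusted p = 0.487 in limma). Pole3, a small subunit of polymerase epsilon, had a change of -0.37 (SE 0.11, adjusted p = 0.703 in limma). Chaf1b, a histone chaperone subunit, had a change of -0.23 (SE 0.0707) and Dbf4, the activator of the Cdc7 kinase, one of 0.21 (SE 0.0732). Of 31 genes of mitosis and G2/M, 26 were detected, 5 of them below 0 (19.2%, against the same 49.6%), with a median of 0.043 and 0 past an adjusted p of 0.05 in limma, where 4 of all 45281 probes passed. At an unadjusted p under 0.05 stood 2 of these, Ccnf and Aurka, both higher at 4 h, against 5.82% of all detected genes. The mitosis median was 0.0016 without 16 h replicate 1, 0.028 without 4 h replicate 3, 0.069 without 16 h replicate 2 and 0.0010 with linear scaling on detected probes. It was 0.41 with median scaling and 0.50 with no normalization between arrays, against the same 0.29 and 0.37 for all detected genes. The 2 lists and the 39 genes were read on the same 6 arrays, and no test of the difference between them was made.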

How the data were processed

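The deposited table held 1 intensity per probe and array, which the authors exported from the scanner software with background subtracted and without normalization; the export held no detection p-values, and the slide was not given in the sources used here. Values below 0 were present (31.2% to 34.0% of an array's probes), so limma 3.58.1 (R 4.3.3) was used for background correction by normexp with an offset of 50, for quantile normalization over the 6 arrays and for the fit on log2 values. Time point was the only term, and p-values were adjusted by Benjamini-Hochberg over 45281 probes. Where a gene had several probes, the brightest on average after normalization stood for it. The noise limit of an array was the 99th percentile of its values below 0, with the sign turned, and a probe was detected when its mean deposited intensity passed the mean limit. The members and lists were chosen with earlier results of these data known, so no test over a list was made. Named were the 10 detected members with the smallest p, the first of each role group and the 5 first of the wider list, of which 1 is not reported here; the rest are given by their change. Sources do not say that the arrays came from separate cultures, so p-values measure only the spread between these arrays, whose number limits the precision; an exact permutation test of 3 against 3 cannot go below p = 0.1. The limma fit was tested on simulated data over 45281 probes in the 4 h against 16 h design. Of 200 probes changed by 1 on the log2 scale, 198 were recovered, and 12 unchanged probes were called. The changed probes were above the noise limit on all 6 arrays, and noise was drawn separately for each array. Recovery of changes as small as those of the members was therefore not measured. In the same run 69 member probes shifted by -0.3 had a median estimate of -0.29. Symbols were matched to RefSeq (GRCm38.p6), 43 of 43, 4 of them by an older name (Cdc45, Orc1, Orc2 and Orc6).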

Additional observations from a re-analysis of the deposited data

How the results depend on the processing

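Under each alternative with quantile or cyclic loess normalization or linear scaling, 0 member probes passed the threshold, and 4 passed with median scaling and 12 with no normalization between arrays (4 and 11 of the 39 genes, where 5.65% and 15.1% of all detected genes passed). The share of detected members lower at 4 h was 2.56% with median scaling and 0% with none, where 5.87% and 1.54% of all detected genes were lower, and 46.2% to 64.1% when 1 array was left out (46.2% without 4 h replicate 2). The members' median change was 0.36 with median scaling, 0.45 with none, -0.058 with linear scaling on detected probes, -0.086 with the 18S split as a block, and -0.084 to 0.015 when 1 array was left out (-0.084 without 4 h replicate 3). Minus the median of all detected genes it was 0.077 with median scaling and with none, -0.093 with the 18S split, and -0.091 to 0.016 when 1 array was left out. The 18S split at the widest gap set 4 h replicate 3 alone apart from the rest. Its change is therefore that of leaving this array out, apart from the normalization, and not a separate check. A block of 3 arrays against 3 by 18S, chosen after seeing the data, gave -0.053. Signs turned with median scaling for Pold1 (0.23), Rfc3 (0.22), Mcm2 (0.12), Cdc6 (0.31), Rpa2 (0.36) and Uhrf1 (0.36), and with none for these (0.32, 0.31, 0.21, 0.40, 0.44 and 0.45) and Gins1 (0.067). Under these scalings the median of all detected genes was itself 0.29 and 0.37, and relative to it Gins1 (-0.31), Mcm2 (-0.17), Rfc3 (-0.070) and Pold1 (-0.051) stayed below 0, while Cdc6 (0.026), Rpa2 (0.070) and Uhrf1 (0.077) did not. Fen1 was -0.086 with the 18S split and -0.0078 with linear scaling, and with the mean of a gene's probes Rfc5 was -0.021 and Cdc6 0.012. When 1 array was left out, signs also turned for Rpa2 (-0.15 to 0.041), Uhrf1 (-0.15 to 0.089), Cdc6 (-0.18 to 0.015) and Fen1 (-0.084 to 0.14), and for the medians of licensing (-0.15 to 0.034), RPA (-0.086 to 0.056), Okazaki fragment (-0.085 to 0.14), deoxynucleotide (-0.089 to 0.092) and cyclin and E2f1 genes (-0.13 to 0.13). Without changing sign, Mcm2 ran from -0.41 to -0.10, Rfc3 from -0.25 to -0.082, Gins1 from -0.48 to -0.24, Rrm1 from 0.12 to 0.34, Ccne1 from 0.10 to 0.29 and Mcm7 from 0.10 to 0.25. The cause was not tested. The labels do not say whether replicate numbers pair the arrays, and 3 correlations of deviations (0.24, 0.17 and -0.47) cannot settle it. With the replicate block 0 member probes passed, as without it. With that block 37 of the 39 intervals lay within 1.5-fold, against 35 without it (94.2% and 93.3% of all detected genes). Dim genes such as Orc1 and Orc2 are limited by signal over background.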
